A study of Mus musculus with 16 samples.

Results

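NF-κB is a family of dimeric transcription factors, and 7 of its genes were followed here through 16 mouse tumours: the subunit genes Nfkb1, Rela, Rel, Nfkb2 and Relb and the inhibitor genes Nfkbia and Tnfaip3. They were taken by name from the 770 genes of the NanoString mouse PanCancer Immune panel, and all 7 were present and passed the filter on low values, which 712 genes passed. In the canonical pathway, receptors for inflammatory signals lead to the destruction of IκBα, the product of Nfkbia, which frees dimers of RelA or c-Rel with p50, the product of Nfkb1, to enter the nucleus. In the non-canonical pathway, receptors such as CD40 lead to the processing of p100, the product of Nfkb2, to p52, which acts with RelB. NF-κB dimers raise the transcription of several of their own genes and inhibitors, and they act in tumour cells as well as in the lymphocytes, myeloid cells and stroma of a tumour.

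The models were the colorectal cancer line MC38 and the breast cancer line E0771, both of mouse origin, of which 500000 cells with matrigel were implanted at the right shoulder. All groups shared an immunotherapy against PD-1 and CTLA-4, so none is untreated, and tumours were excised once imaging at day 5 of the post-treatment phase was done. Hypoxia status (hypoxic or normoxic) is a label of each tumour, and the study's design used PET with the tracer 18F-FMISO to measure hypoxia in these models. There were 4 normoxic MC38 tumours (mice 4, 7, 10 and 21), 4 hypoxic MC38 tumours (mice 12, 14, 17 and 25), 5 normoxic E0771 tumours (mice 4, 17, 38, 65 and 71) and 3 hypoxic E0771 tumours (mice 12, 22 and 55). Within a line each tumour has its own mouse number. The sources used here state no mouse strain, sex or age.

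Values are a normalized signal on which 20 housekeeping genes have the same geometric mean in every tumour, so each difference is relative to those genes. Depth, estimated as the sum of gene counts before that scaling, ran from 180274 to 890239 per tumour, and 5 tumours lay under 350000: MC38 hypoxic 14 and 25, E0771 hypoxic 12 and 22 and E0771 normoxic 65. Markers of the implanted lines are few on the panel: the 3 epithelial markers measured (Epcam, Cdh1 and Muc1) summed to 21.1 to 843 in MC38 and 34.2 to 1256 in E0771 tumours. The values come from whole tumours, in which fewer cells of a type and less RNA per cell cannot be told apart.

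The sequences in front of 4 of the genes are shown because NF-κB is known to act on its own genes through such stretches. RefSeq promoter entries (build GRCm38.p6) matched 5 of the 7 members with 8 start sites; Nfkb1 and Relb had none. The windows below hold the 250 bases before the first listed start site, 5′ to 3′ along the gene, and capitals mark matches to the κB consensus on either strand, with overlapping matches merged.
Rel (chr11:23770970-23771219, minus strand): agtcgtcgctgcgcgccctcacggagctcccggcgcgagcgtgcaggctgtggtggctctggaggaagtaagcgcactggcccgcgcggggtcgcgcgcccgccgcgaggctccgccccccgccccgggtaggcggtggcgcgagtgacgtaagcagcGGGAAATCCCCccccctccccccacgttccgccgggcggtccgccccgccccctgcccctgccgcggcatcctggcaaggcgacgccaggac
Nfkb2 (chr19:46304487-46304736, plus strand): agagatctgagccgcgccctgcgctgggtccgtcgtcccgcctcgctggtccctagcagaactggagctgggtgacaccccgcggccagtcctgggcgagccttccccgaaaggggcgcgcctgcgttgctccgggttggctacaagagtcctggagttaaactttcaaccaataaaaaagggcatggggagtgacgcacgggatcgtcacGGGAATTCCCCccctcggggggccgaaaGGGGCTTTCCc
Nfkbia (chr12:55492648-55492897, minus strand): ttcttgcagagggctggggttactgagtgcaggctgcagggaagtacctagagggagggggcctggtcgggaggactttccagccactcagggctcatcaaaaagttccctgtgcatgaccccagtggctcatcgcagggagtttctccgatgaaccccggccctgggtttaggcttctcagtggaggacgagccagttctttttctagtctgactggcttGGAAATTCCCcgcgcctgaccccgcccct
Tnfaip3 (chr10:19015411-19015660, minus strand): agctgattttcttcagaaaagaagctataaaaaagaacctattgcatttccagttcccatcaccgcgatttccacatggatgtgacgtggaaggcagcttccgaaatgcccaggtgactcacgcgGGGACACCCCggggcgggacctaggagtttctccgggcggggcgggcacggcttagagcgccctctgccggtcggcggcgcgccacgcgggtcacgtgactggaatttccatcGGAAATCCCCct
A κB match stood at the first start site of Rel, Nfkb2, Nfkbia and Tnfaip3 and not at that of Rela. Its end lay 82 bases before the start of Rel and 20 bases before that of Nfkbia. Nfkb2 had separate stretches ending 29 and 2 bases before its start, and Tnfaip3 had them at 116 and 3 bases. Of 32851 mouse promoter windows of the same length, 7.25% held a κB match. The core of the hypoxia response element was searched as ACGTG and GCGTG on both strands. It stood in the windows of Rel and Tnfaip3 printed above and in 38.6% of all windows. The printed Nfkb2 window held none, and the windows at its later start sites, not shown, did. These matches describe letters and do not show binding.

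The first question was how the canonical subunits stand in hypoxic against normoxic tumours of each line. Differences are log2(value + 1), hypoxic minus normoxic, with standard errors, from limma fitted over 712 genes with Benjamini-Hochberg adjustment and a threshold of 0.05. In MC38, Rel was the member that fell (1 of 7), and no member rose. The background was high: 48.6% of all genes tested were called in MC38, 48% lower and 0.562% higher, and the median of all genes was -1.27. The number of genes called, 346, was 171 without hypoxic 25, 175 without normoxic 4 and 204 without normoxic 7.

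Rel encodes c-Rel, a subunit best known for its role in lymphocytes and other blood cells. Its signal in the normoxic MC38 tumours was 479.9, 347, 223 and 303 for mice 4, 7, 10 and 21. In the hypoxic MC38 tumours it was 198, 72.7, 207 and 104 for mice 12, 14, 17 and 25. All 4 hypoxic tumours lay below all normoxic ones, as they did for 24.3% of genes, and the lowest values were those of the tumours of low depth, mice 14 and 25. The difference was -1.29 ± 0.43 (adjusted p = 0.0236), a fall to 0.41 of the normoxic level. It was close to the panel's median: 360 of 712 genes had a higher value, and relative to each tumour's median gene the difference was -0.17 ± 0.37 (adjusted p = 0.741). The call was lost on leaving out mouse 4 (adjusted p = 0.0791), 7 (0.0557), 14 (0.0797) or 25 (0.0742), and with scaling on the positive-control probes in place of the housekeeping genes (-1.16, adjusted p = 0.266). In E0771 the normoxic tumours had 156, 155, 296, 141 and 307 for mice 4, 17, 38, 65 and 71, and the hypoxic tumours 88.9, 211 and 161 for mice 12, 22 and 55. These groups overlapped (-0.45 ± 0.45, adjusted p = 0.708).

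Rela encodes RelA (p65), the main activating subunit of the canonical pathway. In MC38 it stood at 291, 195, 293 and 207 in the normoxic tumours of mice 4, 7, 10 and 21. The hypoxic tumours of mice 12, 14, 17 and 25 had 294, 511, 254 and 359. The groups overlapped through mouse 17, and the difference of 0.50 ± 0.38 did not pass (adjusted p = 0.273). In E0771 the normoxic values were 248, 454, 195, 549.6 and 417 (mice 4, 17, 38, 65 and 71) and the hypoxic values 937, 623 and 408 (mice 12, 22 and 55). Hypoxic mouse 12 was the highest of the 16 tumours and normoxic mouse 65 the highest of its group. This difference, 0.83 ± 0.39, had an unadjusted p = 0.0485 and an adjusted p = 0.620. Of the 712 genes, 34 had a higher difference than Rela in MC38 and 10 in E0771.

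Nfkb1, which gives p105 and p50, the partner of RelA and c-Rel, varied least of the members, by 2.47-fold from the lowest to the highest tumour. Normoxic MC38 tumours had 1063, 642, 622 and 561 (mice 4, 7, 10 and 21) and hypoxic ones 562, 572, 592 and 558 (mice 12, 14, 17 and 25). Mouse 4 stood apart from the other 7 MC38 tumours, which spanned 558 to 642, and the difference was -0.29 ± 0.26 (adjusted p = 0.346). Without mouse 4 it was -0.09. In E0771 the normoxic values were 456, 525, 429.8, 494 and 603 (mice 4, 17, 38, 65 and 71), the hypoxic ones 513, 549 and 509.7 (mice 12, 22 and 55). The difference was 0.07 ± 0.27 (adjusted p = 0.948). The hypoxic values lay inside the normoxic range.

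The non-canonical subunits came next. Nfkb2 encodes p100, which is at once the precursor of p52 and an IκB-like inhibitor. Its signal was 741, 775, 939 and 762 in the normoxic MC38 tumours of mice 4, 7, 10 and 21, and 1046, 1752, 968 and 1413 in the hypoxic ones of mice 12, 14, 17 and 25. Every hypoxic tumour lay above every normoxic one, and 4 genes of the panel (0.562%) had this pattern, the others being Eef1g, Myc and Yy1, which were found by searching the values for it. The difference of 0.65 ± 0.38, a ratio of 1.57, did not pass (adjusted p = 0.151). On the scale of each tumour's median gene it was 1.77 ± 0.47 (adjusted p = 0.0236).

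In E0771, Nfkb2 was at 321, 489.5, 306, 916 and 489 in the normoxic tumours of mice 4, 17, 38, 65 and 71, and at 985, 1133 and 427 in the hypoxic ones of mice 12, 22 and 55. The groups overlapped, with normoxic 65 among the high tumours and hypoxic 55 among the low ones. The difference was 0.75 ± 0.39 (adjusted p = 0.620). In this line no gene was called (0%, 0 of 712, limma; 45 at an unadjusted p under 0.05), and none of the members had groups that do not overlap, against 0.14% of genes with hypoxic tumours above and 0.562% with them below. The median of all E0771 differences was -0.36. With positive-control scaling that median was -1.51, and Nfkb2 (-0.46), Rela (-0.38) and Relb (-0.58) had the opposite sign in E0771.

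Relb, the partner of p52, was nearly flat in MC38, at 309.7, 302, 256 and 305 in normoxic mice 4, 7, 10 and 21 and 237, 279, 252 and 317 in hypoxic mice 12, 14, 17 and 25. The groups overlapped, with a difference of -0.12 ± 0.34 (adjusted p = 0.797). E0771 tumours spread more widely, with 182, 381, 158, 396 and 378 in normoxic mice 4, 17, 38, 65 and 71 and 552, 384 and 372 in hypoxic mice 12, 22 and 55. Normoxic mice 4 and 38 were the low ones, while the other 3 normoxic tumours lay beside hypoxic 22 and 55. The difference was 0.63 ± 0.35 (adjusted p = 0.620).

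**Figure D1:**
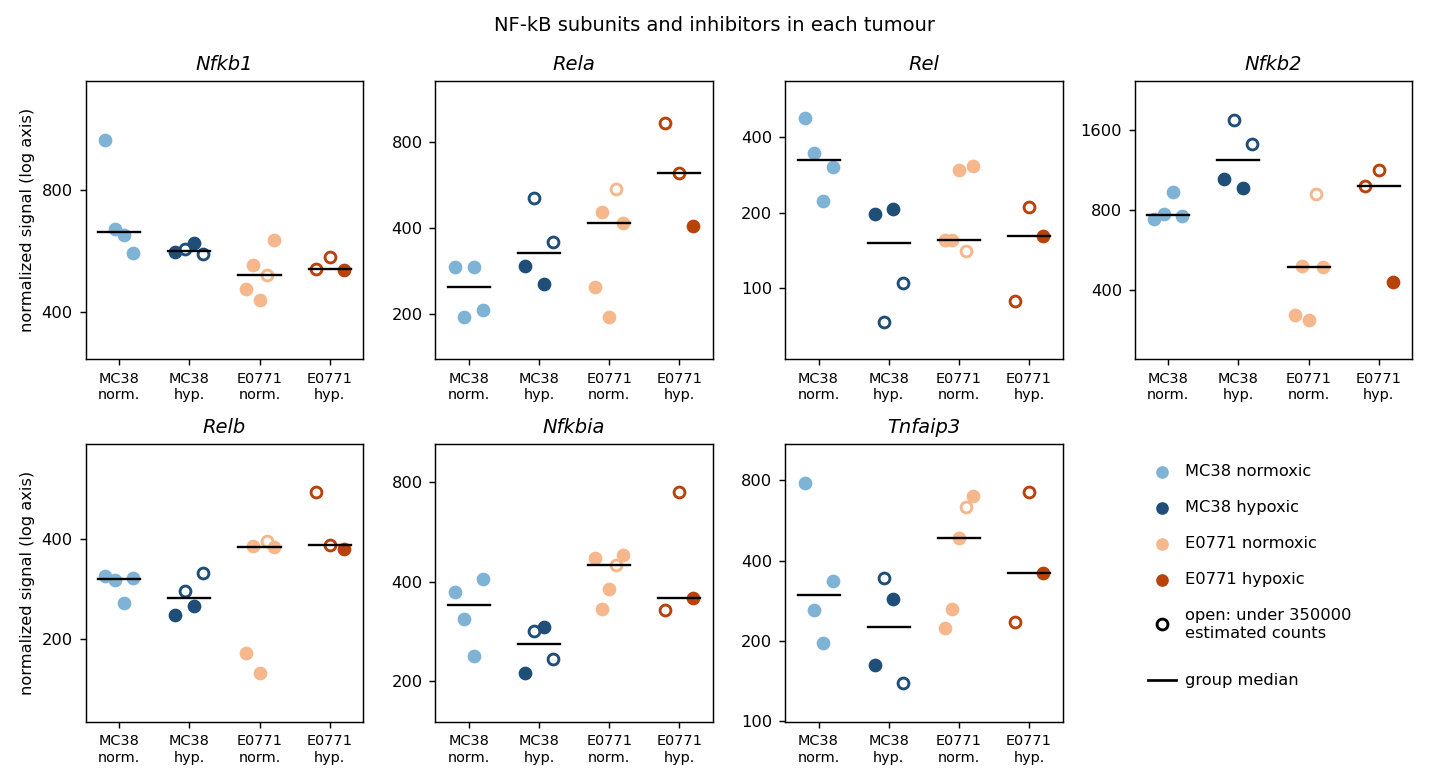
Normalized signal (log axis) of the 7 NF-κB genes in each of the 16 tumours by line and hypoxia status; bars are group medians and open symbols are the 5 tumours under 350000 estimated counts. In MC38 all hypoxic values of Nfkb2 lie above and all of Rel below the normoxic ones, while Nfkb1 spans 558 to 642 in every MC38 tumour but mouse 4 (1063).

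The inhibitors followed neither pattern. Nfkbia, which encodes IκBα and is itself a target of RelA, had 373, 309, 238 and 409 in normoxic MC38 mice 4, 7, 10 and 21 and 212, 284, 293 and 233.5 in hypoxic mice 12, 14, 17 and 25. The 3 highest values were normoxic, but mouse 10 lay among the hypoxic tumours, and the difference was -0.36 ± 0.31 (adjusted p = 0.331). In E0771 it had 470.4, 331, 380.5, 449 and 483 in normoxic mice 4, 17, 38, 65 and 71 and 328, 746 and 358 in hypoxic mice 12, 22 and 55. Hypoxic 22, the tumour of lowest depth, was the highest of all 16, the other 2 hypoxic tumours lay near the low end of the normoxic range, and the difference was 0.09 ± 0.32 (adjusted p = 0.948).

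Tnfaip3 encodes A20, an enzyme that edits ubiquitin chains and ends signalling upstream of the IκB kinase. Normoxic MC38 tumours had 785, 260.2, 196 and 337 (mice 4, 7, 10 and 21), and hypoxic ones 163, 344, 288 and 139 (mice 12, 14, 17 and 25). Mouse 4 was again the highest and the groups overlapped (-0.65 ± 0.51, adjusted p = 0.281). E0771 normoxic tumours had 223, 262, 487, 635 and 702 (mice 4, 17, 38, 65 and 71), and hypoxic ones 235, 722 and 360.1 (mice 12, 22 and 55). Both groups ran over nearly the same range (-0.08 ± 0.52, adjusted p = 0.963). Tnfaip3 had the largest spread of log2 values over the 16 tumours of any member (SD 0.78), against 0.29 for Nfkb1.

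Averaging the hypoxia difference over both lines tests whether that average differs from 0, which 1 line alone can carry. Nfkb2 was higher in hypoxic tumours (0.70 ± 0.27, a ratio of 1.63, adjusted p = 0.0473) and Rel lower (-0.87 ± 0.31, a ratio of 0.55, adjusted p = 0.0353). Among all genes 0.702% were called higher and 41.4% lower, so Rel was 1 of 295 lower genes and Nfkb2 1 of 5 higher ones. The number of genes called, 300, was 0 without E0771 hypoxic 12, 93 without MC38 hypoxic 25, 109 without MC38 normoxic 4 and 131 without E0771 hypoxic 55. It was 149 without MC38 normoxic 7, 177 without E0771 normoxic 38 and 198 without MC38 normoxic 21. Rela had almost the size of Nfkb2 and did not pass (0.67 ± 0.27, adjusted p = 0.0568). The values of the other members were 0.26 ± 0.24 for Relb, -0.11 ± 0.19 for Nfkb1, -0.14 ± 0.23 for Nfkbia and -0.36 ± 0.36 for Tnfaip3, with adjusted p from 0.388 to 0.637. With positive-control scaling Nfkb2 was 0.16 (adjusted p = 0.805) and Rel -1.41 (adjusted p = 0.0236), and Nfkb2 also missed the threshold with a filter at a mean of 50 (adjusted p = 0.0529), with eBayes without trend (0.0591) and with robust estimation (0.0509). Relative to the median gene Rel was not called for the mean of both lines (-0.10, adjusted p = 0.778). Leaving out 1 tumour, Nfkb2 passed in 4 of 16 fits (those without MC38 normoxic 10, MC38 hypoxic 17, E0771 hypoxic 55 or E0771 normoxic 65; 0.57 to 0.92 over all), and Rel in 7 of 16 (without MC38 normoxic 10, MC38 hypoxic 12 or 17, E0771 normoxic 4, 17 or 65 or E0771 hypoxic 22; -1.01 to -0.70 over all).

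Since most panel genes were lower in hypoxic tumours, the members were also read against each tumour's median gene. On that scale 10.5% of genes were called higher and 16.2% lower in MC38 (75 and 115 genes, against 4 and 342 as deposited). Nfkb2 (1.77) and Rela (1.62 ± 0.49, adjusted p = 0.0277) were 2 of the 75, and the other members did not pass. Relb stood at 1.01 (adjusted p = 0.0866), Nfkb1 at 0.83 (0.0968), Nfkbia at 0.76 (0.0974), Tnfaip3 at 0.48 (0.287) and Rel at -0.17. For the mean of both lines 11.2% of genes were called higher, among them Nfkb2 (1.48 ± 0.34, adjusted p = 0.0175), Rela (1.44 ± 0.35, adjusted p = 0.0175) and Relb (1.03 ± 0.32, adjusted p = 0.0316). In E0771 again no gene was called on this scale (0%; 76 at an unadjusted p under 0.05). There Rela had 1.26, Nfkb2 1.18, Relb 1.05, Nfkbia 0.51, Nfkb1 0.50, Tnfaip3 0.34 and Rel -0.03. In both lines the order therefore ran from Nfkb2 and Rela at the top to Rel at the bottom, with overlapping 95% intervals between all neighbours.

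**Figure D2:**
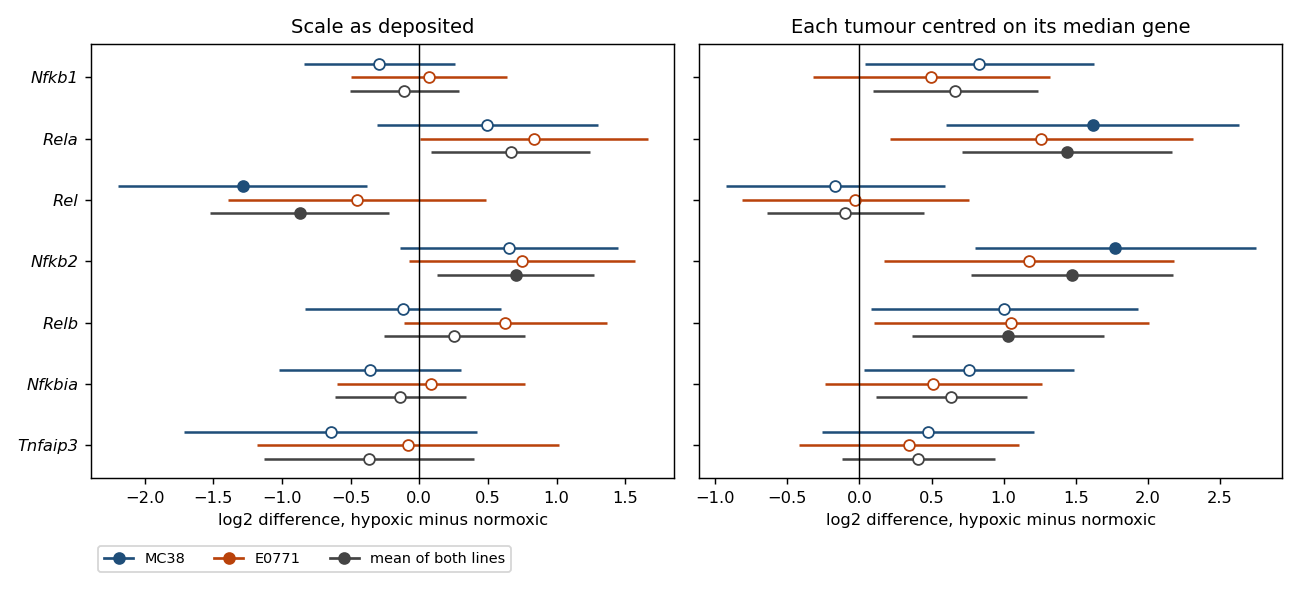
Log2 difference, hypoxic minus normoxic, of each gene in MC38, in E0771 and for the mean of both lines, with 95% confidence intervals, on the deposited scale (left) and with each tumour centred on its median gene (right); filled symbols have an adjusted p under 0.05. On the left Rel (MC38 and mean) and Nfkb2 (mean) are filled, and on the right Nfkb2 and Rela (MC38 and mean) and Relb (mean).

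**Figure D3:**
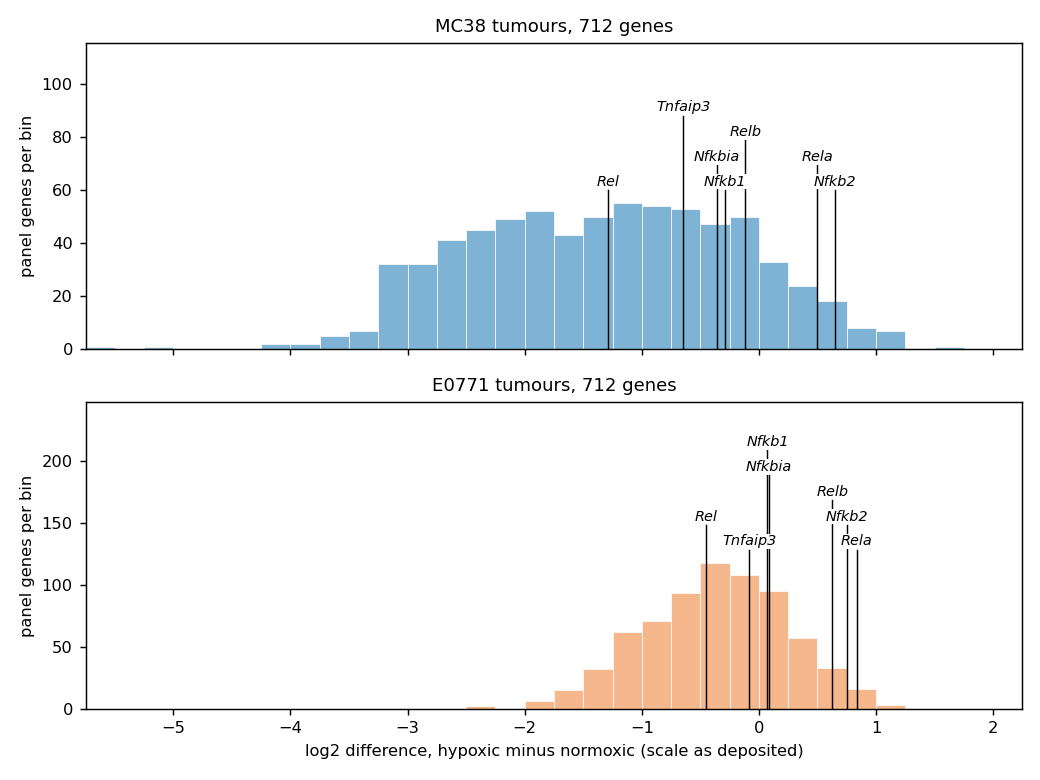
Histogram of the log2 differences of all 712 genes tested (number of genes per bin of width 0.25), hypoxic minus normoxic, in MC38 (top) and E0771 (bottom), with lines at the 7 NF-κB genes. Rel lies near the medians of -1.27 and -0.36, and Nfkb2 and Rela lie in the upper tail, with 25 and 34 genes above them in MC38 and 18 and 10 in E0771.

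Depth moved with Nfkb2 and Rela. In MC38 the 2 tumours under 350000 estimated counts had 1413 and 1752 of Nfkb2 against 741 to 1046 in the other 6, and in E0771 the 3 such tumours had 916 to 1133 against 306 to 489.5 in the other 5. For Rela the ranges were 359 to 511 against 195 to 294 in MC38 and 549.6 to 937 against 195 to 454 in E0771. The shallow tumours lay above all others in both lines for 6 of 712 genes (0.843%), among them Anp32b, Tap1 and Tubb5, named after their values were seen. They include E0771 normoxic 65, so this split does not follow hypoxia status alone. Without these 5 tumours, which leaves 2 hypoxic MC38 tumours and 1 hypoxic E0771 tumour, no gene was called in any hypoxia comparison (limma; 193, 3 and 129 genes at an unadjusted p under 0.05 in MC38, E0771 and their mean). The Nfkb2 difference was then 0.33 in MC38, 0.13 in E0771 and 0.23 for the mean (adjusted p = 0.578), that of Rela 0.17, 0.40 and 0.29, and that of Rel -0.68, -0.42 and -0.55 (adjusted p = 0.339 for the mean). The part of depth in these results was not tested.

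**Figure D4:**
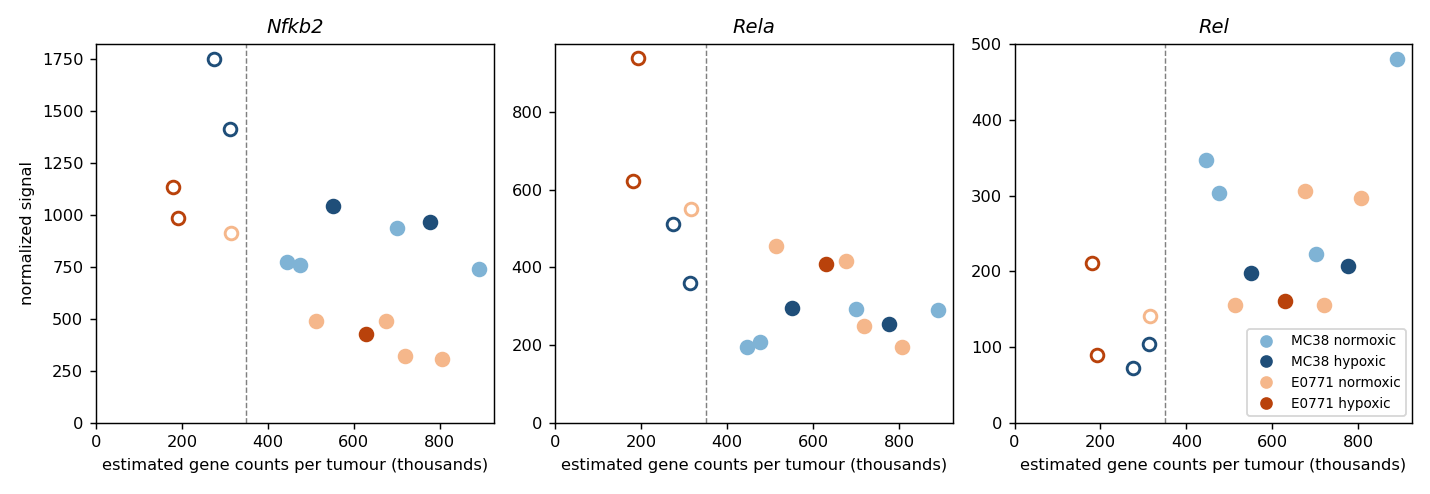
Normalized signal of Nfkb2, Rela and Rel against the estimated gene count of each tumour (axis in kilocounts); open symbols lie left of the dashed line at 350000 counts. The 5 open symbols are the highest of their line for Nfkb2 and Rela, and the 2 of MC38 are the lowest of their line for Rel (72.7 and 104).

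Ratios of members within a tumour do not depend on its scaling factor, and 3 were taken after the values had been seen, as a description. The ratio of Nfkb2 to Nfkb1, the genes of the p100 and p105 precursors, was 0.697, 1.21, 1.51 and 1.36 in normoxic MC38 mice 4, 7, 10 and 21 and 1.86, 3.06, 1.63 and 2.53 in hypoxic mice 12, 14, 17 and 25. All hypoxic tumours were above all normoxic ones. In E0771 it was 0.704, 0.933, 0.713, 1.85 and 0.811 in normoxic mice 4, 17, 38, 65 and 71 and 1.92, 2.06 and 0.838 in hypoxic mice 12, 22 and 55, with normoxic 65 high and hypoxic 55 low. Rela over Rel ran from 0.563 to 1.32 in normoxic and from 1.23 to 7.02 in hypoxic MC38 tumours, and from 0.657 to 3.91 in normoxic and from 2.53 to 10.5 in hypoxic E0771 tumours. Its highest value in each line belonged to a hypoxic tumour of low depth. Nfkbia over Rela, the inhibitor against its partner, had medians of 1.43 in normoxic and 0.685 in hypoxic MC38 tumours and of 1.16 and 0.877 in E0771. The groups overlapped in both lines. A ratio compares probes, so its change between tumours can be read and its level cannot.

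The next comparison set the lines against each other. No member was called between E0771 and MC38 for the mean of both states, where 13.6% of genes were called. Nfkb2 was lower in E0771 by its value (-0.74 ± 0.27, adjusted p = 0.0861), and Rela (0.69 ± 0.27, adjusted p = 0.113) and Nfkbia (0.58 ± 0.23, adjusted p = 0.101) were higher by theirs. With positive-control scaling Nfkb2 was lower in E0771 (-1.51, adjusted p = 0.0343) while Rela (-0.09) and Nfkbia (-0.19) turned sign. Under that scaling 173 of 712 genes were called lower and 2 higher, and the median of all genes was -0.87, against -0.12 as deposited. Nfkb2 was also called without the 5 tumours of low depth (-1.13, adjusted p = 0.0404) and without E0771 hypoxic 22 or E0771 normoxic 65 alone. Tnfaip3 (0.57), Relb (0.30), Rel (-0.29) and Nfkb1 (-0.31) had adjusted p of 0.310 to 0.585. By group mean, Nfkb2 was ordered MC38 hypoxic (1295 ± 362, SD, n = 4), E0771 hypoxic (849 ± 372, n = 3), MC38 normoxic (804 ± 90.9, n = 4) and E0771 normoxic (504 ± 246, n = 5). The ranges of all neighbours in this order overlapped. For Rela the order was E0771 hypoxic (656 ± 266), E0771 normoxic (373 ± 148), MC38 hypoxic (355 ± 113) and MC38 normoxic (247 ± 52.8). Again the ranges of all neighbours overlapped. No member was called among normoxic tumours alone (15.7% of genes called) or hypoxic tumours alone (7.87%). The normoxic count of 112 genes was 32 without MC38 normoxic 7, 37 without MC38 normoxic 21, 42 without E0771 normoxic 17, 56 without E0771 normoxic 71, 59 without MC38 normoxic 4 and 198 without MC38 normoxic 10. The hypoxic count of 56 was 37 without E0771 hypoxic 12, and no member was called in any of these fits.

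Whether hypoxia status shifted a member by different amounts in the lines was tested by an interaction term. No gene of the panel was called (0%, 0 of 712, limma; 133 at an unadjusted p under 0.05), and the members had adjusted p of 0.390 or more. This count rested on MC38 normoxic 10: without that tumour 132 genes were called, all with a higher hypoxic minus normoxic difference in E0771, and none of them was a member. The largest member values were those of Rel and Relb, both near the median of all genes (0.76). They were 0.83 ± 0.62 and 0.74 ± 0.49, E0771 minus MC38, with 95% intervals of -0.47 to 2.14 and -0.28 to 1.77. The call of Rel in MC38 is therefore not shown to differ from its value in E0771.

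Pathway genes around the family were counted in 7 lists, and in MC38 the genes that passed all fell, as 48% of all genes did. Of 10 ligands of NF-κB activating receptors 6 fell (median -1.69, all genes -1.27), among them Cd40lg, the T cell ligand of CD40 (-3.10 ± 0.78), and Tnfsf14, the lymphotoxin-like ligand LIGHT (-2.99 ± 0.71). Of 15 canonical receptors 8 fell (median -1.45), led by the Toll-like receptors Tlr6 (-2.71 ± 0.57) and Tlr5 (-2.60 ± 0.58). Of 4 non-canonical receptors tested only Cd40 fell (-1.65 ± 0.42, list median -0.65). Of 25 adaptors and kinases 11 fell (median -0.77), among them Card9 (-3.38 ± 0.70), an adaptor that passes signals from immune receptors to BCL10. Of 5 other inhibitors, Irak3 (-2.47 ± 0.61) and Tollip (-0.90 ± 0.34), which both restrain Toll-like receptor signalling, fell (median -0.57).

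Among the targets, 12 of 26 canonical target genes fell in MC38 (median -1.28), near the share and the median of all genes, including the endothelial adhesion gene Sele (-2.64 ± 0.68) and Il12b, which encodes IL-12 p40 (-2.57 ± 0.69). Of 5 non-canonical targets 4 fell (median -1.87), among them the lymphoid chemokines Ccl19 (-3.09 ± 0.68) and Cxcl13 (-2.21 ± 0.84). All of these named falls had adjusted p of 0.00732 to 0.0377, and none passed without the 5 tumours of low depth. Leaving out 1 tumour, Tollip was not called without MC38 normoxic 4 or 7 or MC38 hypoxic 12, 14 or 25 (adjusted p up to 0.133). Cxcl13 was not called without MC38 normoxic 4, 7 or 21 or MC38 hypoxic 12, 14 or 25 (up to 0.143). Cd40 and Tollip also missed the threshold with positive-control scaling, and Cd40, Tollip, Sele and Cxcl13 relative to the median gene. The members' own median was -0.29, against list medians of -1.87 to -0.57. In E0771 no gene of any list was called. Relative to the median gene, 2 canonical targets, 2 adaptors or kinases and 1 non-canonical receptor rose in MC38, where 10.5% of all genes did. On that scale 2 ligands, 2 canonical receptors, 2 adaptors or kinases, 1 other inhibitor, 1 canonical target and 1 non-canonical target fell, against 16.2% of all genes.

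Between the lines, as the mean of both states, 4.78% of genes were higher and 8.85% lower in E0771 (34 and 63 genes, but 2 and 173 with positive-control scaling). In the canonical targets 2 of 26 were higher, Icam1 (1.47 ± 0.36) and the survival gene Bcl2l1 (1.35 ± 0.23), and 7 were lower, led by the chemokines Cxcl10 (-3.12 ± 0.42) and Cxcl1 (-3.06 ± 0.43). Among adaptors and kinases the interleukin-1 receptor kinases Irak2 (1.58 ± 0.33) and Irak1 (1.17 ± 0.21) were higher and Ripk2, the kinase of NOD receptors, lower (-0.78 ± 0.25). Of the canonical receptors Il1rap was higher (1.27 ± 0.37), and Tlr3 (-1.83 ± 0.33) and Il18rap (-1.11 ± 0.36) were lower. Tnfsf13b, which encodes the B cell factor BAFF and is both a ligand and a non-canonical target, was lower (-1.39 ± 0.45). Their adjusted p ran from 6.8e-05 to 0.0498. With positive-control scaling none of the named higher genes passed: the adjusted p was 0.251 for Irak2, 0.573 for Irak1, 0.325 for Icam1, 0.431 for Bcl2l1 and 0.509 for Il1rap. Leaving out 1 tumour, Il1rap was not called without MC38 hypoxic 14 or 25, MC38 normoxic 21 or E0771 hypoxic 55. Of the lower genes, omission of 1 tumour lost the call of Tnfsf13b in 13 of 16 fits, of Ripk2 in 12 and of Il18rap in 11.

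Many cell type markers, though not all, fell with Rel and the pathway lists in MC38. The endothelial marker Kdr, for one, did not (0.12 ± 0.41, limma, adjusted p = 0.834). All 3 B cell markers tested, 3 of 5 T cell, 4 of 5 myeloid, 3 of 4 fibroblast, 1 of 4 endothelial and 1 of 2 epithelial markers were called lower in hypoxic tumours. Of all genes tested, 48% were called lower in the same comparison. The summed B cell markers were 70.4 to 506 in normoxic and 21.1 to 69.7 in hypoxic MC38 tumours, and the summed T cell markers 543 to 1090 and 129 to 465. Myeloid markers summed to 4104 to 26592 and 1304 to 4620, fibroblast markers to 6518 to 57137 and 2534 to 8620, endothelial markers to 573 to 1757 and 313 to 641, and the 3 epithelial markers to 93.4 to 843 and 21.1 to 136. Ptprc, the pan-leukocyte marker CD45, was at 440.2 to 1702 and 64.6 to 533 (-1.78 ± 0.75, adjusted p = 0.0576). In E0771 no marker was called, and Ptprc was at 263 to 1322 in normoxic and 77.5 to 577 in hypoxic tumours. The other sums there, normoxic then hypoxic, were 222 to 3008 and 182 to 746 for T cell, 40.9 to 105 and 20.5 to 81.0 for B cell, and 3693 to 12278 and 3092 to 5322 for myeloid markers. For endothelial markers they were 238 to 836 and 173 to 468, for fibroblast markers 4167 to 20728 and 2809.6 to 37214, and for epithelial markers 36.3 to 1256 and 34.2 to 338. For the mean of both lines Ptprc was lower in hypoxic tumours, as Rel was (-1.50 ± 0.54, adjusted p = 0.0361). No tested marker was at its floor of 1 in any tumour. The part of cell content in the difference of Rel was not tested.

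The likeness of profiles was measured as the root mean square difference of log2 profiles over the 16 tumours, each centred on its own mean, so that 0 is identical. The measure takes in how much a gene varies as well as the shape of its profile. Genes that vary little, such as Nfkb1 (SD 0.29) and Relb (SD 0.45), can therefore lie near each other even where their shapes differ. Among the members the closest pair was Rela and Relb (0.40), then Nfkb1 and Relb (0.47) and the inhibitors Nfkbia and Tnfaip3 (0.51). The farthest pair was Rela and Rel (1.21). Over the panel the genes nearest to Rel were Atg5, Ifnar1 and Traf3 (0.32 to 0.34), those nearest to Nfkb2 were Oas2, Oas3 and Trp53 (0.40 to 0.44), and those nearest to Rela were Polr2a, Tgfb1 and Tap1 (0.24 to 0.38). Polr2a is a housekeeping gene of the scaling, and the other panel genes named in this text are not marked for that. Nearest to Nfkb1 were Gusb, Cd47 and Bcl10 (0.25 to 0.26), to Relb Traf2, Tap2 and Csf1 (0.28 to 0.29), to Nfkbia Ikbkg, Alas1 and Ets1 (0.27 to 0.33) and to Tnfaip3 Map3k1, Tnfrsf1b and Ncf4 (0.27 to 0.37). The median likeness of a member to all genes was 0.88 to 1.33. These values describe 16 tumours that share lines and depths, and carry no test.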

How the data were processed

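RNA of 16 tumours was measured with the NanoString mouse PanCancer Immune panel (784 probes: 770 genes, 8 negative and 6 positive controls). The deposited values are a normalized signal on a linear scale; how the authors made them is not given in the sources used here, but their pattern shows that each tumour was multiplied by 1 factor (0.631 to 3.52) that set the geometric mean of 20 housekeeping genes to 780 (779.7 in each tumour), with genes under 1 raised to 1, control probes unscaled and background not subtracted. Dividing by the factor gave estimated gene counts (median 531762 per tumour), which describe depth only. Background grows with the factor: negative probes, scaled, had means of 2.69 to 24.6. The lowest ratio of a member value to the negative-probe mean of its tumour was 5.11, for Rel.

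Genes with a mean of at least 24.0 (mean plus 2 SD of the scaled negative probes) were tested: 712 of 770. The model was limma 3.58.1 in R 4.3.3 (lmFit, eBayes with trend) on log2(value + 1), which understates differences of low genes, with 4 group means over all 16 tumours; p-values were adjusted by Benjamini-Hochberg across those 712 genes, and the code was tested on simulated data. P-values measure the spread between tumours, which have separate mouse numbers within a line. Numbers 4, 12 and 17 occur in both lines, and the labels do not say whether those are the same mice. The labels name no batch, so one that coincides with a group cannot be told apart from it. Precision is limited by 3 to 5 tumours per group. Panel names were matched to RefSeq symbols of GRCm38.p6 (741 by symbol, 7 by synonym, 22 unmatched).

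Members, pathway lists and marker lists were chosen with earlier results of these data known. The text names the 7 members; up to 2 rises and 2 falls per list and comparison among genes that passed; and the 3 panel genes of most like profile for each member. Some genes that these rules name are not reported here. Alternatives were median-gene centring, scaling on the positive-control probes, background subtraction, no filter or one at a mean of 50, 10 as the pseudocount, robust or untrended eBayes, 1 line or 1 state alone, omission of the 5 tumours of low depth, and omission of each tumour.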

Additional observations from a re-analysis of the deposited data

Results flagged for a closer look

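Relb in MC38 normoxic 10 (256.39) lay further below the other normoxic MC38 tumours (302 to 309.7) than Dixon's test allows at 95%. It was the only one of 21 groups of 4 or 5 tumours tested over the 7 members, and chance alone gives about 1 in 20. The hypoxia difference of no member was called as differing between lines in the interaction test over all 16 tumours.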

How the results depend on the processing

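Of the members' differences in the 3 hypoxia comparisons and the mean line comparison, 230 of 266 values under the alternatives other than omission of 1 tumour kept direction and side of the threshold. The number of members called in MC38 was 1, and 2 with median centring, 0 with positive-control scaling and 0 without the 5 tumours of low depth. For the mean of both lines it was 2, and 1 (Rel, not Nfkb2) with positive-control scaling, a filter at a mean of 50, eBayes without trend or robust estimation, and 0 without the tumours of low depth. Between lines it was 0, and 1 (Nfkb2) with positive-control scaling or without those tumours. Leaving out 1 tumour gave 0 to 1 in MC38, 0 to 3 for the mean of both lines and 0 to 1 between lines. The panel's calls in MC38 were 346 as reported, 213 with positive-control scaling, 190 with centring and 171 to 420 without 1 tumour (171 without hypoxic 25, 175 without normoxic 4, 204 without normoxic 7). For the mean of both lines they were 300, 145 with centring, and 0 to 402 without 1 tumour (0 without E0771 hypoxic 12, and under 200 without MC38 normoxic 4, 7 or 21, MC38 hypoxic 25, E0771 normoxic 38 or E0771 hypoxic 55), with 5 higher of 300 as reported against 80 higher of 145 with centring. In E0771, positive-control scaling called 127 genes, all lower, and between lines 175 against 97 (147 with background subtraction, 33 without the tumours of low depth), with 2 higher of 175 against 34 of 97. The interaction count of 0 was 132 without MC38 normoxic 10 and 0 in the other fits without 1 tumour. Between normoxic tumours the count of 112 was 59 with a filter at a mean of 50 or with that state alone, 36 without the tumours of low depth and 32 to 198 without 1 tumour. Between hypoxic tumours 56 was 3 without those of low depth and 37 to 72 without 1 tumour. Positive-control scaling moved the median of all genes to -1.51 in E0771 and -1.14 in MC38, and centring moved that of MC38 to -0.15.

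Median centring turned the sign in MC38 of Nfkb1 (0.83), Relb (1.01), Nfkbia (0.76), Tnfaip3 (0.48) and the list gene Tollip (0.22), in E0771 of Tnfaip3 (0.34), and for the mean of Nfkb1 (0.66), Nfkbia (0.64) and Tnfaip3 (0.41). Positive-control scaling turned it in MC38 for Relb (0.0072), in E0771 for Nfkb1 (-1.14), Rela (-0.38), Nfkb2 (-0.46), Relb (-0.58) and Nfkbia (-1.12), for the mean for Relb (-0.29), and between lines for Rela (-0.090), Relb (-0.48), Nfkbia (-0.19) and Tnfaip3 (-0.20). None of these passed. Without the tumours of low depth Nfkbia was -0.20 in E0771. Leaving out 1 tumour, Nfkbia ran from -0.29 to 0.30 and Tnfaip3 from -0.52 to 0.29 in E0771. Centring moves every gene of a comparison by the same amount, and positive-control scaling moves them nearly alike. The sign changes under these 2 scalings are therefore not particular to the members. The cause of the changes on omission of tumours was not tested. No paired analysis was possible because no 2 groups of this comparison share 2 mouse numbers. The planned edgeR test on recovered counts was not run, because a check of the units did not accept the recovered values as whole counts. By the fit of the factors, though, 100% of gene values other than 1 lay within 0.1 step of a whole multiple in each tumour.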
